A study of Mus musculus with 18 samples.

Results

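The genes described here build peroxisomes or encode peroxisomal proteins outside the classical fatty acid beta-oxidation steps: 13 peroxins, 5 membrane proteins and 18 enzymes. These 36 genes were taken by name from the 35441 genes of the count table, with no measured value in the rule, and all 36 were among the 14533 genes tested, which had more than 100 reads summed over the mice. Hao2 passed that filter only through its 182 reads in WT mice at 34 weeks, against 32 in the other 15 mice, so it is described by its reads and left out of the counts and medians below, which cover the other 35 genes. Livers came from 18 mice in 6 groups of 3, sampled at 12 and 34 weeks post-injection (3 and 8 months in the labels). WT mice were untreated. Lipa-/- mice, untreated, lack lysosomal acid lipase through deletion of an exon of Lipa by a CMV-driven Cre on a C57BL/6N background. rAAV8-treated Lipa-/- mice carried the same deletion and received rAAV8.hAAT.LIPA by tail vein, a vector that expresses the human LIPA cDNA from the hepatocyte-specific human alpha-1-antitrypsin promoter. Male mice were used by the study's account. Most untreated Lipa-/- mice had to be sacrificed early on reaching endpoints, so their later group need not share one age.

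Peroxisomes are single-membrane organelles that are abundant in hepatocytes. Their matrix proteins are made in the cytosol and imported by receptors that recognise a targeting signal, dock at the membrane, release their cargo and are then ubiquitinated and pulled back out. Besides shortening very-long-chain and branched fatty acids, liver peroxisomes break down hydrogen peroxide, urate, glyoxylate and phytanic acid and start the synthesis of ether lipids such as plasmalogens. Many genes of the organelle are known targets of the nuclear receptor PPARalpha.

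Between 17527848 and 25833134 reads were assigned to genes per mouse. Levels are given as CPM, reads of a gene scaled to library size after TMM scaling (trimmed mean of M-values), in the order of the mouse numbers. TMM factors ran from 0.587 to 1.69, and 3 reads corresponded to between 0.0946 and 0.291 CPM. The factors followed the groups, so CPM differences between groups depend on this scaling. They were 0.587 to 0.759 in treated mice at 12 weeks and 0.806 to 1.07 in WT mice and treated mice at 34 weeks. In Lipa-/- mice they were 1.16 to 1.23 at 12 weeks and 1.37 to 1.69 at 34 weeks. Mouse Lipa was at 202 to 323 CPM in WT mice and 16.7 to 37.0 CPM in all mice with the deletion, and the human LIPA transgene was at 523 to 2746 CPM in treated mice and at most 0.906 CPM elsewhere. The Lipa-/- mouse numbered 4 at 34 weeks had no read of the Y-linked genes Ddx3y and Eif2s3y, whereas Ddx3y was at 40.3 to 142 CPM in the other 17 mice. Without it, the log2 fold changes of the 35 genes in Lipa-/- against WT mice at 34 weeks moved by at most 0.30, no called gene changed sign and 1 call was lost (Gnpat). The main counts and some of the values that rest on it are also given without it. The Lipa-/- mouse numbered 5 at 12 weeks had a study code of its own in the labels. All other mice at 12 weeks shared one code and all mice at 34 weeks another, so time and study code cannot be told apart.

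Lipa-/- mice had lower levels of 19 of the 35 genes at 12 weeks and of 27 at 34 weeks, counting genes called against WT, and 9.06% and 15.7% of all tested genes were called lower. A gene was called when its fold change exceeded 2 (an absolute log2 fold change above 1) with an adjusted p under 0.05. Among the genes called lower at both times were Nudt7, Hacl1, catalase (Cat), Abcd3 and Pex11a. Far1 was called higher at both times and Abcd2 at 12 weeks, beside 20.2% of all genes called higher at 12 weeks and 20.5% at 34 weeks. Whatever the size of the change, 27 genes at 12 weeks and 28 at 34 weeks were lower at an adjusted p under 0.05, as were 16.3% and 23.5% of all genes. Every Lipa-/- mouse lay below every WT mouse for 27 genes at 12 weeks and 28 at 34 weeks, beside 24.1% and 29.8% of all genes. The median log2 fold change was -1.04 at 12 weeks and -1.79 at 34 weeks, and over all tested genes it was 0.02 and -0.03. Without mouse 4, 26 genes were called lower and 1 higher at 34 weeks, beside 13.2% and 18.4% of all genes, with a median of -1.62. Without mouse 5, 17 were called lower and 2 higher at 12 weeks, beside 1359 and 2828 of all 14421 genes then tested, with a median of -0.92. A test of whether the Lipa-/- difference itself changed between 12 and 34 weeks called 0 of the 35 genes with edgeR, beside 0.0619% of all genes. DESeq2 called 1 of the 35, beside 1.18% of all genes, and 15 of the 35 had an unadjusted p under 0.05 with edgeR, beside 9.48% of all genes.

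**Figure D1:**
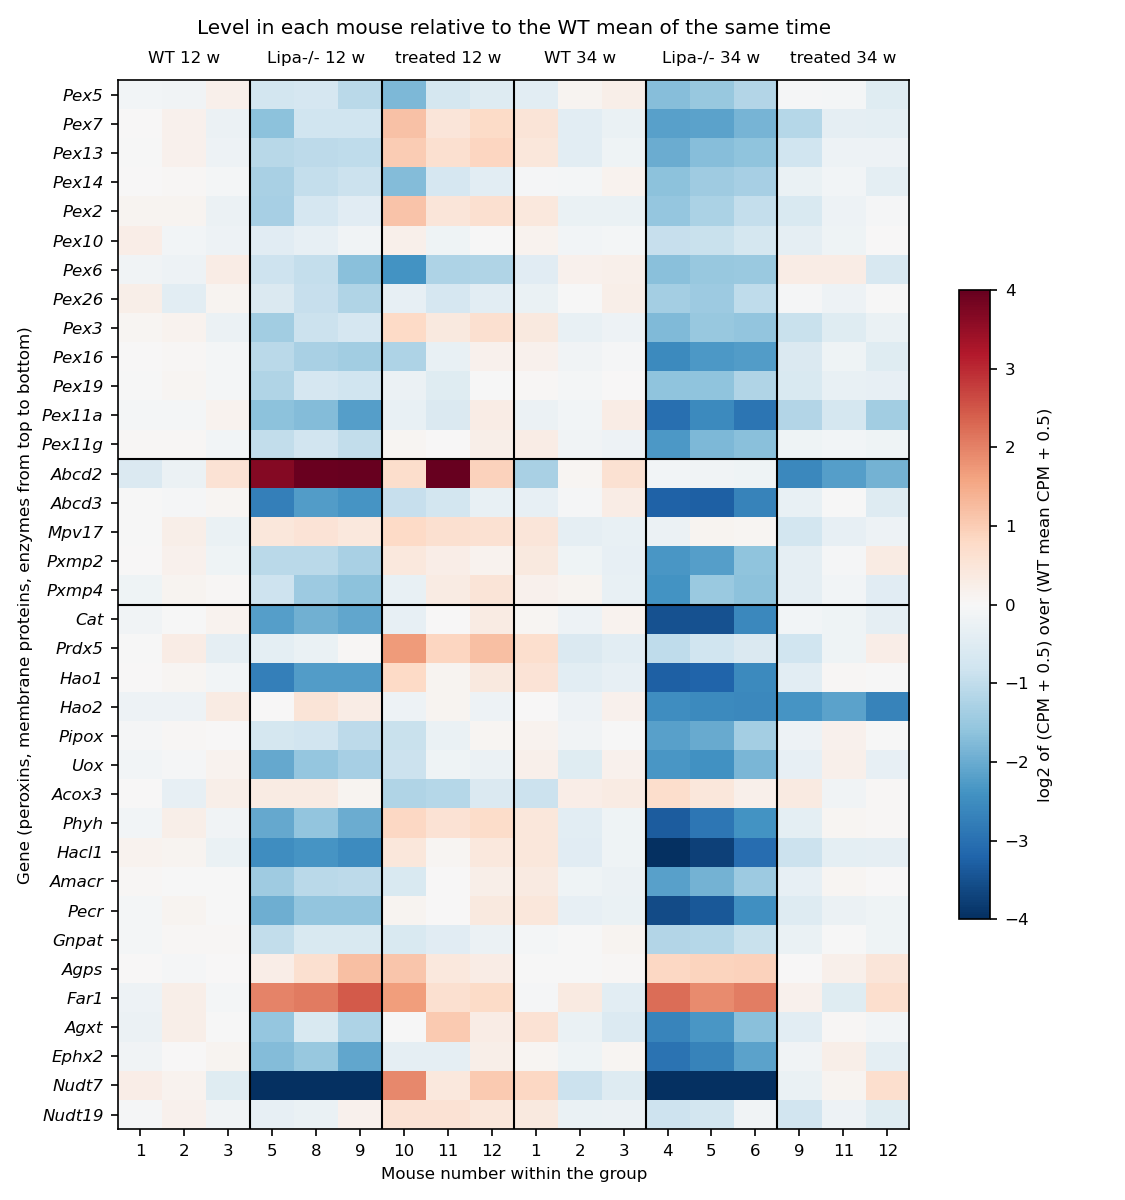
Heat map of the 36 genes (rows, grouped as peroxins, membrane proteins and enzymes) in the 18 mice (columns, numbered within each group). Colour is the log2 ratio of CPM + 0.5 to the WT mean + 0.5 of the same time, with the scale ending at 4 in each direction. The Lipa-/- columns are blue for most rows at both times, Far1 and Agps are red there, and Abcd2 is red at 12 weeks only.

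The size of the decline depended on how libraries were scaled. Scaling to total counts moved the median of all genes in Lipa-/- against WT mice to 0.49 at 12 weeks and 0.60 at 34 weeks, and scaling to 9 hepatocyte markers moved it to 0.46 at 12 weeks and 0.93 at 34 weeks. Relative to the hepatocyte markers, the median of the 35 genes was -0.62 at 12 weeks and -0.86 at 34 weeks. On that scale 10 genes were called lower and 3 higher at 12 weeks, beside 3.91% and 25% of all genes, and 15 were called lower and 3 higher at 34 weeks, beside 5% and 42.3%. Under total counts 10 and then 19 genes were called lower, beside 4.11% and 7.24% of all genes. In all 6 ways of scaling and testing compared, which included DESeq2 and limma on TPM (a level scaled to transcript length and library size), 10 of the 35 genes were called lower at 12 weeks and 15 at 34 weeks. The 10 at 12 weeks were Abcd3, Cat, Ephx2, Hacl1, Hao1, Nudt7, Pecr, Pex11a, Phyh and Uox, and all of them were also among the 15. The share of all genes called in all 6 ways was not counted.

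Markers of several cell types moved in the same comparison. Of all genes 9.06% were called lower and 20.2% higher at 12 weeks, and 15.7% and 20.5% at 34 weeks. Of 9 hepatocyte markers, 1 was called lower at 12 weeks and 5 at 34 weeks, and their summed level was 79314 to 101275 CPM in WT and 57660 to 75877 CPM in Lipa-/- mice at 12 weeks, then 74547 to 98823 and 33604 to 65278 CPM at 34 weeks. Of 10 macrophage markers, 9 were called higher at 12 weeks and 8 at 34 weeks, when the Kupffer cell marker Clec4f was called lower (-2.73), with sums of 151 to 401 CPM in WT and 3561 to 6660 CPM in Lipa-/- mice at 12 weeks, and 264 to 563 and 2628 to 5379 CPM at 34 weeks. Of 5 cholangiocyte markers, 3 and then 5 were called higher, with sums of 29.4 to 58.7 CPM in WT and 453 to 2233 CPM in Lipa-/- mice at 12 weeks. Of 8 stellate and fibroblast markers, 7 were called higher and 1 lower at each time, and of 8 T, B and NK cell markers 5 and then 4 were called higher and 0 and then 1 lower. All 5 neutrophil markers were called higher at 12 weeks and 3 at 34 weeks, and of 6 endothelial markers 1 was called higher and 2 lower at each time. Without mouse 4, 4 hepatocyte markers were called lower and 1 higher at 34 weeks, the macrophage, cholangiocyte and stellate counts were as given, and 2 of the T, B and NK cell markers were called higher and 2 lower, and 2 neutrophil markers higher. No hepatocyte, macrophage, cholangiocyte or stellate marker in the table was at 0 reads across a whole group. In whole liver, fewer hepatocytes and less RNA per hepatocyte cannot be told apart, and the part of cell composition in the decline was not tested.

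At 34 weeks each functional step of peroxin action held genes called lower in Lipa-/- mice, and at 12 weeks each step but the ubiquitination of the receptor did. Of the 13 peroxins, 6 were called lower at 12 weeks and 12 at 34 weeks, beside 9.06% and 15.7% of all genes. None was called higher, and the median log2 fold change was -0.96 and -1.57. Among the import receptors, Pex5, which carries most matrix proteins, gave -0.83 ± 0.28 (log2 fold change ± SE throughout) at 12 weeks, past the adjusted p but under the fold threshold, and -1.47 ± 0.29 at 34 weeks. Pex7, the receptor for the second type of targeting signal, gave -1.03 ± 0.30 and -2.08 ± 0.31. Both docking proteins fell, Pex13 by 1.07 and 1.77 and Pex14 by 1.04 and 1.48 on the log2 scale at 12 and 34 weeks. Of the ubiquitin ligases that modify the receptor for recycling, Pex2 gave -0.78 ± 0.27 and -1.26 ± 0.27. Pex10 gave -0.32 ± 0.21 and -0.92 ± 0.21, the single peroxin called at neither time. Pex6, an ATPase that extracts the receptor, gave -1.13 ± 0.33 and -1.57 ± 0.33. Its membrane anchor Pex26 gave -0.91 ± 0.23 and -1.34 ± 0.23.

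The peroxins that insert membrane proteins and divide the organelle covered the widest range. Pex3, the docking site for new membrane proteins, gave -0.96 ± 0.24 and -1.66 ± 0.24. Its chaperone Pex19 gave -0.87 ± 0.19 and -1.46 ± 0.19. Pex16, which acts with both, gave -1.25 ± 0.26 and -2.38 ± 0.27. Pex11g, one of the elongation factors that precede division, gave -0.92 ± 0.18 and -1.93 ± 0.19. Pex11a, another of them and a known PPARalpha target, was the peroxin with the largest change at both times. It was at 73.5, 74.1 and 85.6 CPM in WT, 24.4, 22.8 and 16.4 CPM in Lipa-/- and 63.7, 52.1 and 94.8 CPM in treated mice at 12 weeks. Pex11a was at 108, 116 and 157 CPM in WT, 15.2, 21.3 and 16.4 CPM in Lipa-/- and 55.9, 78.1 and 47.7 CPM in treated mice at 34 weeks. Lipa-/- mice were below all WT and all treated mice at both times, and Pex11a fell by 1.87 ± 0.26 (adjusted p = 3.1e-05) and 2.85 ± 0.27 (adjusted p = 5.2e-07) on the log2 scale. Pex11a was also the single peroxin called at 12 weeks under total counts, hepatocyte markers or TPM, where the peroxin median was -0.48, -0.55 and -0.57. Of all 14533 genes, these alternatives called 597, 568 and 419 lower at 12 weeks. At 34 weeks they called 5, 4 and 5 of the 13 peroxins lower, beside 1052, 727 and 813 of all genes. Without mouse 5, Pex7 and Pex14 lost their call at 12 weeks (log2 fold changes of -0.80 and -0.92) and Pex26 gained one (-1.10).

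**Figure D2:**
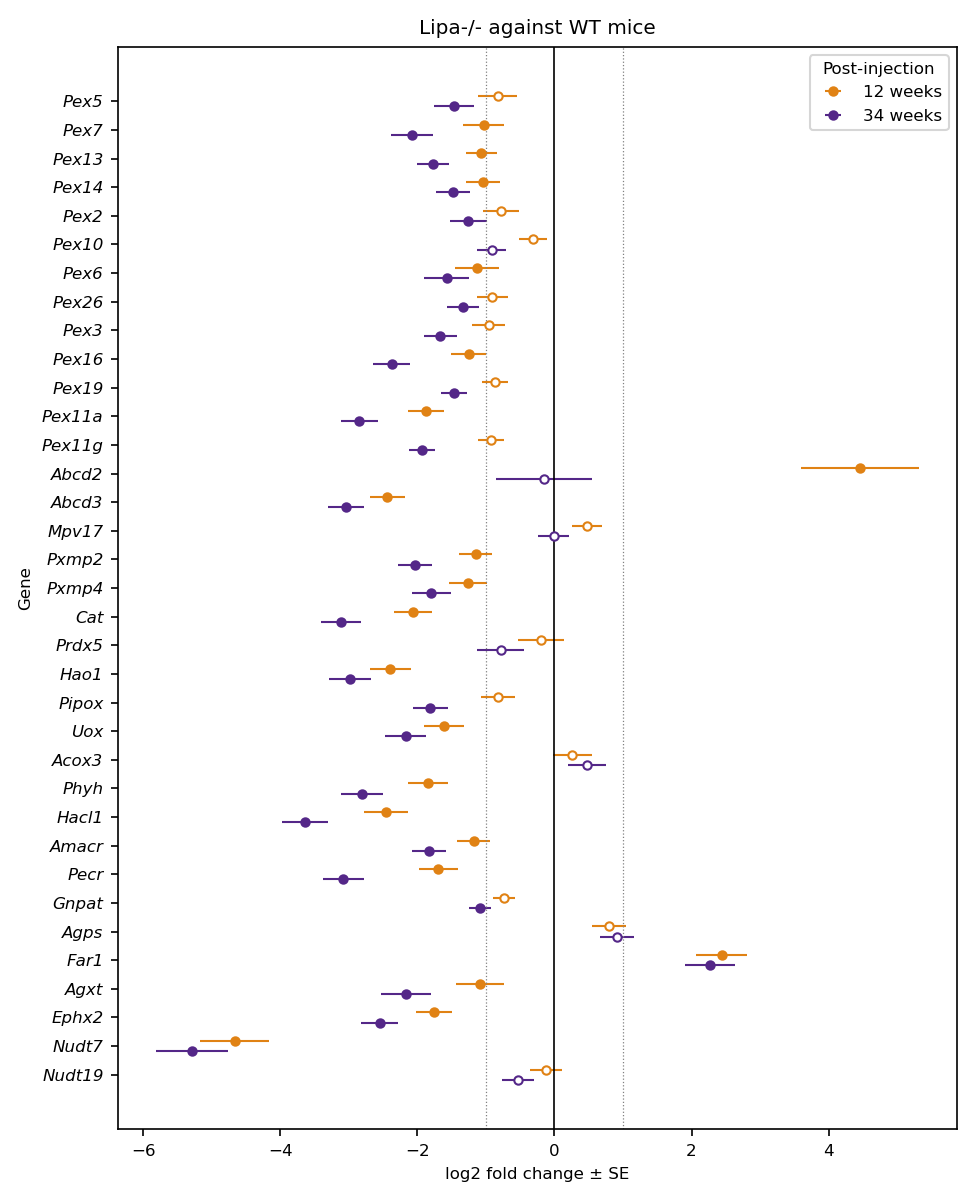
Log2 fold change ± SE of Lipa-/- against WT mice (horizontal axis) for 35 genes (vertical axis; Hao2 omitted) at 12 weeks (orange) and 34 weeks (purple), with 3 mice a group. Filled points were called, open points were not, and dotted lines mark a log2 change of 1 in either direction. Most points lie left of 0, with Far1 right of the threshold at both times and Abcd2 at 12 weeks only.

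Membrane transporters and channels split by gene. Abcd3, the half-transporter PMP70 that imports branched-chain acyl-CoAs and bile acid precursors, was at 563, 553 and 599 CPM in WT, 84.7, 121 and 111 CPM in Lipa-/- and 305, 346 and 463 CPM in treated mice at 12 weeks. At 34 weeks it was at 471, 567 and 724 CPM in WT, 61.3, 60.8 and 92.1 CPM in Lipa-/- and 474, 583 and 411 CPM in treated mice. Lipa-/- mice did not overlap either other group, and the log2 fold change against WT was -2.44 ± 0.26 at 12 weeks (adjusted p = 1.8e-06) and -3.04 ± 0.26 at 34 weeks (adjusted p = 2.5e-07). The channel protein Pxmp2 fell by 1.15 and 2.03, and its relative Pxmp4 by 1.26 and 1.79, on the log2 scale at 12 and 34 weeks. Mpv17, of the same family but known mainly as a protein of the inner mitochondrial membrane, was called at neither time (0.47 ± 0.22 and -0.01 ± 0.22).

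Abcd2, a peroxisomal membrane transporter of fatty acyl-CoAs, went the other way at 12 weeks. It was at 0.589, 0.861 and 1.88 CPM in WT, 19.9, 24.6 and 29.1 CPM in Lipa-/- and 2.14, 32.7 and 2.53 CPM in treated mice. All Lipa-/- mice were above all WT mice, 22.0-fold higher (log2 fold change 4.46 ± 0.86, adjusted p = 0.00059), and among treated mice only mouse 11 was near their level. At 34 weeks Abcd2 was at 9.91, 26.2 and 38.4 CPM in WT, 23.0, 22.6 and 21.8 CPM in Lipa-/- and 3.78, 4.97 and 6.26 CPM in treated mice. There the Lipa-/- mice lay within the WT range (log2 fold change -0.15 ± 0.70, adjusted p = 0.88), and all treated mice were below all WT mice without a call (-2.31 ± 0.75, adjusted p = 0.52). WT mice were themselves higher at 34 than at 12 weeks by 4.48 ± 0.86 on the log2 scale (adjusted p = 0.035). Leaving out mouse 11 ended the call in treated against WT mice at 12 weeks (log2 fold change 1.07, adjusted p = 0.13).

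Hao2, a peroxisomal oxidase of long-chain 2-hydroxy acids, was near the limit of detection in all groups but one. Read counts in WT mice at 34 weeks were 46, 57 and 79, against 2, 1 and 1 in Lipa-/- and 3, 4 and 0 in treated mice. At 12 weeks they were 0, 0 and 4 in WT, 2, 8 and 5 in Lipa-/- and 0, 2 and 0 in treated mice. Summed over the 3 mice of a group and not scaled for depth, there were 182 reads in WT, 4 in Lipa-/- and 7 in treated mice at 34 weeks. Because the WT mice at 34 weeks alone brought Hao2 past the read filter, no test of it is given. Abcd2 was the single one of the 35 genes called between the WT groups, beside 0.22% of all genes called higher, and leaving out single mice ended that call in 5 of 6 cases. Cyp2b9 and Hsd3b5, a female-predominant cytochrome P450 and a male-predominant steroid enzyme, were looked at beside these genes after their values were seen. Cyp2b9 was at 8.43, 50.7 and 44.6 CPM in WT mice at 34 weeks and 0.107, 0.0957 and 0.785 CPM at 12 weeks. Hsd3b5 was at 167, 2.05 and 9.50 CPM and 429, 487 and 334 CPM. At 12 weeks Cyp2b9 had no read in treated mouse 11 and was at 0.284, 0.311 and 0.242 CPM in Lipa-/- mice. Hsd3b5 was at 283 CPM in that treated mouse and at 0.142, 0 and 0.0808 CPM in those Lipa-/- mice. At 34 weeks Cyp2b9 was at 0 to 2.24 CPM in Lipa-/- and 0.164 to 0.203 CPM in treated mice. Hsd3b5 was then at 0.0368 to 0.309 CPM in Lipa-/- and 64.2 to 283 CPM in treated mice. The WT mice at 34 weeks all carried Ddx3y reads, and the part of the Cyp2b9 and Hsd3b5 differences in the Abcd2 and Hao2 values was not tested.

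The enzymes held the largest falls. Of the 17 besides Hao2, 10 were called lower at 12 weeks and 12 at 34 weeks, beside 9.06% and 15.7% of all genes. Nudt7, a peroxisomal diphosphatase that hydrolyses coenzyme A and its esters, fell most. At 12 weeks it was at 1171, 1075 and 706 CPM in WT, 30.6, 45.6 and 40.2 CPM in Lipa-/- and 3745, 1329.6 and 2036 CPM in treated mice. Nudt7 was at 866, 269.5 and 343 CPM in WT, 10.8, 10.5 and 16.6 CPM in Lipa-/- and 408, 529 and 782 CPM in treated mice at 34 weeks. Lipa-/- mice were 25.4-fold lower than WT mice at 12 weeks (log2 fold change -4.67 ± 0.50, adjusted p = 2.4e-06) and 39.1-fold lower at 34 weeks (-5.29 ± 0.52, adjusted p = 7e-07), with no overlap of the groups. Without mouse 4 the fall at 34 weeks was 35.7-fold. Nudt19, the second coenzyme A diphosphatase of the set, was not called (-0.12 ± 0.24 and -0.53 ± 0.24).

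Phytanic acid and 2-hydroxy acids are shortened by an alpha-oxidation route, and of the 5 genes besides Hao2 that act on branched-chain or 2-hydroxy acids, 4 were called lower at both times and Acox3 at neither. Phyh, the hydroxylase that opens alpha-oxidation, was at 1832, 2303 and 1789 CPM in WT, 481, 667 and 501 CPM in Lipa-/- and 3516, 2922 and 3311 CPM in treated mice at 12 weeks. At 34 weeks it was at 2316, 1264 and 1527 CPM in WT, 169, 231 and 328 CPM in Lipa-/- and 1285, 1789 and 1765 CPM in treated mice. The Lipa-/- mice were the lowest at each time, with log2 fold changes against WT of -1.85 ± 0.30 (adjusted p = 0.00012) and -2.81 ± 0.31 (adjusted p = 1.9e-06). Hacl1, the lyase of the following step, was at 679, 662 and 510.4 CPM in WT, 109, 120.3 and 107 CPM in Lipa-/- and 839, 650.0 and 819 CPM in treated mice at 12 weeks. Hacl1 was at 692, 365 and 448 CPM in WT, 23.5, 37.1 and 60.4 CPM in Lipa-/- and 277, 383 and 392 CPM in treated mice at 34 weeks. It fell by 2.46 ± 0.32 (adjusted p = 1.5e-05) and 3.64 ± 0.34 (adjusted p = 4.3e-07) on the log2 scale, again without overlap.

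Pecr, a reductase of branched and unsaturated enoyl-CoAs, was at 244, 281 and 254 CPM in WT, 66.6, 87.3 and 86.0 CPM in Lipa-/- and 277, 261 and 342 CPM in treated mice at 12 weeks. At 34 weeks it was at 341, 199 and 209 CPM in WT, 20.4, 23.3 and 44.9 CPM in Lipa-/- and 173, 212 and 222 CPM in treated mice. The Lipa-/- mice were below all others at each time, with log2 fold changes of -1.70 ± 0.29 (adjusted p = 0.00018) and -3.08 ± 0.30 (adjusted p = 6.5e-07). Amacr, the racemase that prepares branched acyl-CoAs for oxidation, fell by 1.18 and 1.83 on the log2 scale. Acox3, an oxidase of branched acyl-CoAs, was not called (0.26 ± 0.28 and 0.48 ± 0.28). Acox3 was called higher at 34 weeks under total counts (1.08, adjusted p = 0.017) and relative to the hepatocyte markers (1.44, adjusted p = 0.0097).

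Catalase (Cat), which removes hydrogen peroxide, was called lower at both times, and of the 4 oxidases besides Hao2 that release it, Hao1 and Uox were called lower at both times, Pipox at 34 weeks and Acox3 at neither. Cat was at 2779, 3027 and 3364 CPM in WT, 670.5, 812 and 719 CPM in Lipa-/- and 2448, 3093 and 3831 CPM in treated mice at 12 weeks. Cat was at 3003, 2469.5 and 3144 CPM in WT, 257, 257 and 478 CPM in Lipa-/- and 2638, 2572 and 2227 CPM in treated mice at 34 weeks. All Lipa-/- mice lay below all others, 4.17-fold lower than WT at 12 weeks (log2 fold change -2.06 ± 0.28, adjusted p = 2.3e-05) and 8.68-fold lower at 34 weeks (-3.12 ± 0.29, adjusted p = 4.6e-07). Hao1, the glycolate oxidase of glyoxylate formation, was at 399, 419.6 and 364 CPM in WT, 58.7, 83.2 and 82.9 CPM in Lipa-/- and 690.2, 426 and 521 CPM in treated mice at 12 weeks. At 34 weeks it was at 417, 211 and 224 CPM in WT, 28.9, 30.3 and 48.3 CPM in Lipa-/- and 213, 295 and 278 CPM in treated mice. Hao1 fell by 2.40 ± 0.30 (adjusted p = 1.1e-05) and 2.99 ± 0.31 (adjusted p = 1.2e-06) on the log2 scale, with no overlap. Agxt, which detoxifies glyoxylate to glycine, gave -1.08 ± 0.35 and -2.17 ± 0.36, and its call at 12 weeks was lost without mouse 5 (-0.89, adjusted p = 0.088). Urate oxidase Uox gave -1.61 ± 0.29 and -2.17 ± 0.30. Pipox, which oxidises sarcosine and pipecolic acid, gave -0.82 ± 0.25, under the fold threshold, and -1.81 ± 0.25.

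Ephx2, the soluble epoxide hydrolase found in peroxisomes and cytosol, was at 621, 696 and 735 CPM in WT, 205, 239 and 161 CPM in Lipa-/- and 529, 535 and 799 CPM in treated mice at 12 weeks. Ephx2 was at 679, 582 and 686 CPM in WT, 83.9, 101 and 148 CPM in Lipa-/- and 588, 765 and 498 CPM in treated mice at 34 weeks. The log2 fold change in Lipa-/- mice was -1.76 ± 0.26 (adjusted p = 5.8e-05) and -2.55 ± 0.27 (adjusted p = 1.5e-06), and no Lipa-/- mouse reached a WT level. Prdx5, a peroxiredoxin shared by peroxisomes, mitochondria and cytosol, was not called in Lipa-/- mice (-0.19 ± 0.34 and -0.78 ± 0.34). It was at 423, 521 and 335 CPM in WT, 322, 358 and 439 CPM in Lipa-/- and 1382, 773 and 987 CPM in treated mice at 12 weeks. At 34 weeks it was at 543, 230.2 and 257 CPM in WT, 169, 199 and 231 CPM in Lipa-/- and 199, 306 and 412 CPM in treated mice. In CPM the treated mice stood above both other groups at 12 weeks, and at 34 weeks the groups overlapped. In TPM the treated mice at 12 weeks, at 936, 678 and 657, overlapped the Lipa-/- mice, at 497, 531 and 683.

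The ether lipid enzymes did not move as one. Far1, which makes the fatty alcohols for ether lipids and is held as the rate-limiting step of plasmalogen synthesis, was at 1.66, 2.44 and 1.88 CPM in WT, 9.48, 9.94 and 13.3 CPM in Lipa-/- and 7.48, 3.37 and 3.76 CPM in treated mice at 12 weeks. Far1 was at 2.30, 3.27 and 1.67 CPM in WT, 13.1, 10.4 and 11.6 CPM in Lipa-/- and 2.76, 1.58 and 4.12 CPM in treated mice at 34 weeks. All Lipa-/- mice were above all WT and treated mice at both times, 5.44-fold above WT at 12 weeks (log2 fold change 2.44 ± 0.37, adjusted p = 7.3e-05) and 4.84-fold at 34 weeks (2.27 ± 0.37, adjusted p = 8.5e-05). Agps, the alkyl transferase of the pathway, was higher at an adjusted p under 0.05 but under the fold threshold (0.79 ± 0.25 and 0.91 ± 0.25). Under total counts, hepatocyte markers or TPM, Agps passed both thresholds at both times. Gnpat, the acyltransferase that acts first at the glycerol backbone, was lower, with -0.74 ± 0.16 at 12 weeks and -1.09 ± 0.16 at 34 weeks, where mouse 4 decided the call (-0.999 without it). Far1 was the gene called higher in all 6 ways of scaling at both times.

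Per transcript length, the order of the enzymes changed. In TPM, the WT mice at 12 weeks ranked Phyh first at 1399 ± 98.1 (mean ± SD, n = 3), then Cat at 1106 ± 236, Uox at 1096 ± 249.98, Nudt7 at 889 ± 172 and Prdx5 at 446 ± 56.4. Cat and Uox did not differ beyond their spread. In Lipa-/- mice at 12 weeks Prdx5 ranked first at 570.0 ± 99.0 TPM, with Phyh at 547 ± 98.9 TPM within its spread, and Nudt7 was no longer among the first 6. The TPM summed over the 36 genes was 7262 ± 523 in WT, 3124 ± 406 in Lipa-/- and 6460 ± 189 in treated mice at 12 weeks. At 34 weeks the sums were 7079 ± 626, 2202 ± 361 and 7138 ± 160.4 TPM.

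The start regions of the genes were read from the mouse genome (GRCm39, with GENCODE transcripts) because so many of the genes moved together and PPARalpha with its partner RXR is known to bind direct repeats of a half-site with 1 base between them. The window ran from 250 bases before to 50 bases after the start of each canonical transcript. The full repeat, AGGTCANAGGTCA on either strand, was in 10 of 21757 protein-coding promoters (0.046%) and in 0 of the 36. Allowing at most 1 mismatch in each half-site gave 461 promoters (2.12%), again with 0 of the 36. The half-site alone, AGGTCA, which each full repeat contains, was in 6 of 36 windows (16.7%) and 15.1% of all windows. The E-box CACGTG was in 4 of 36 (11.1%) against 7.82% of all windows, and CCAAT in 13 of 36 (36.1%) against 39.9%. These windows do not cover enhancers. The stretches before the start of 4 genes are shown because they span the changes, from the largest fall to the gene that rose at both times, and capitals mark AGGTCA or CCAAT on either strand. Nudt7 (chr8:114860047-114860296, plus strand), Pex11a (chr7:79392834-79393083, minus strand), Abcd3 (chr3:121609140-121609389, minus strand) and Far1 (chr7:113112590-113112839, plus strand) are each written 5′ to 3′ along the gene.
Nudt7: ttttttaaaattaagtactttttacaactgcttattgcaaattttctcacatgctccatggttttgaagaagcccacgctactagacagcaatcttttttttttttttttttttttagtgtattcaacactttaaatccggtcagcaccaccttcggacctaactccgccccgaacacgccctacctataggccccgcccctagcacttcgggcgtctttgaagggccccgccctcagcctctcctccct
Pex11a: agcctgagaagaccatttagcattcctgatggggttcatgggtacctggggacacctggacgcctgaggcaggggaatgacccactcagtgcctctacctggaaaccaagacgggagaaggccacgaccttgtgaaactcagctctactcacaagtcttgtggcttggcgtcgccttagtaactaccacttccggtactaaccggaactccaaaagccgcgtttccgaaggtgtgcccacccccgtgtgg
Abcd3: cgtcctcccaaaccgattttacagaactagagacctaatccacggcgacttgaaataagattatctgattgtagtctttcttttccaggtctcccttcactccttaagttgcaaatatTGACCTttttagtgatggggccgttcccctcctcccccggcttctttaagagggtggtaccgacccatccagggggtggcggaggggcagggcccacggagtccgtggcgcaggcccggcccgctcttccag
Far1: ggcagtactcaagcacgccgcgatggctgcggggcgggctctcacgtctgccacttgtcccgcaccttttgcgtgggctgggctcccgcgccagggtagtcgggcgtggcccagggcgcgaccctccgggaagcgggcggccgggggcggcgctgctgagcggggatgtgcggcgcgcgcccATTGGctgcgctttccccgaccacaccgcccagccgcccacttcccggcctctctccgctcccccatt
Only the Abcd3 stretch held the half-site, on the opposite strand, and only the Far1 stretch held CCAAT, also on the opposite strand. The stretches of Nudt7 and Pex11a held none of the 3 motifs.

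Other genes of the organelle were counted by pathway. Among all tested genes 9.06% were called lower in Lipa-/- mice at 12 weeks and 15.7% at 34 weeks. Of 15 beta-oxidation genes, 9 were called lower at 12 weeks and 13 at 34 weeks, and none higher. The 3 with the largest change at 12 weeks were the thiolase Acaa1b (-2.34), the sterol carrier and thiolase Scp2 (-1.84) and the bifunctional enzyme Ehhadh (-1.58). Of 15 other matrix and membrane genes tested, 10 and then 14 were called lower and none higher, led at 12 weeks by the NADH diphosphatase Nudt12 (-1.74), the protease Lonp2 (-1.66) and the bile acid conjugating enzyme Baat (-1.56). Of the 3 fission genes shared with mitochondria, 0 were called at either time with edgeR (1 and then 0 at an unadjusted p under 0.05), with Dnm1l at -0.50, Fis1 at 0.27 and Mff at 0.11 at 12 weeks. Without mouse 4 the counts at 34 weeks were again 13 and 14 lower.

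Ppara, which encodes the receptor itself, fell by 1.42 ± 0.35 at 12 weeks (adjusted p = 0.0037) and 1.98 ± 0.35 at 34 weeks (adjusted p = 0.0002) on the log2 scale. Among the 10 regulators listed, Pparg, a related receptor of adipocytes and macrophages, was called higher at 12 weeks (1.44), and Hnf4a, a hepatocyte identity factor, was not called (-0.78, adjusted p = 0.054). At 34 weeks 2 of the 10 regulators were called lower and 0 higher. Of 19 PPARalpha targets outside the peroxisome, 8 were called lower at 12 weeks and 15 at 34 weeks, and none higher. Of all genes 9.06% and 15.7% were called lower. Without mouse 4, 14 of them were called lower at 34 weeks, and Ppara was at -2.06. The largest at 12 weeks were the fatty acid hydroxylases Cyp4a14 (-6.36) and Cyp4a10 (-3.35) and the thioesterase Acot1 (-4.27).

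In treated mice at 34 weeks, 0 of the 35 genes were called against WT with edgeR, beside 0.0895% of all genes called lower, and 4 had an unadjusted p under 0.05, beside 5.76% of all genes. The median of the 35 genes was -0.17. The largest differences among them were Abcd2 and Pex11a, with Pex11a at -1.07 ± 0.25 (adjusted p = 0.17), which DESeq2 called (-1.08, adjusted p = 0.012). A p that misses the threshold does not show that the other genes were at the WT level. Against Lipa-/- mice at 34 weeks, 25 of the 35 were called higher and 2 lower, beside 12.8% and 18.6% of all genes. The 2 lower were Far1 (-2.04 ± 0.36) and Abcd2 (-2.16 ± 0.75). The largest rise was that of Nudt7, 45.4-fold (5.51 ± 0.53, adjusted p = 1.1e-06), followed by Hacl1 (3.12 ± 0.33). Without mouse 4, 24 were called higher and 1 lower, beside 10.5% and 16.3% of all genes, with Nudt7 41.4-fold higher and Abcd2 not called. Relative to the hepatocyte markers 13 were called higher and 5 lower, beside 4.41% and 36.3% of all genes. In this comparison 8 of 10 macrophage, 7 of 8 stellate and fibroblast and all 5 cholangiocyte markers were called lower and 4 of 9 hepatocyte markers higher, and their part in it was not tested. These comparisons share the treated mice, and the treated and untreated comparisons with WT share the WT mice.

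**Figure D3:**
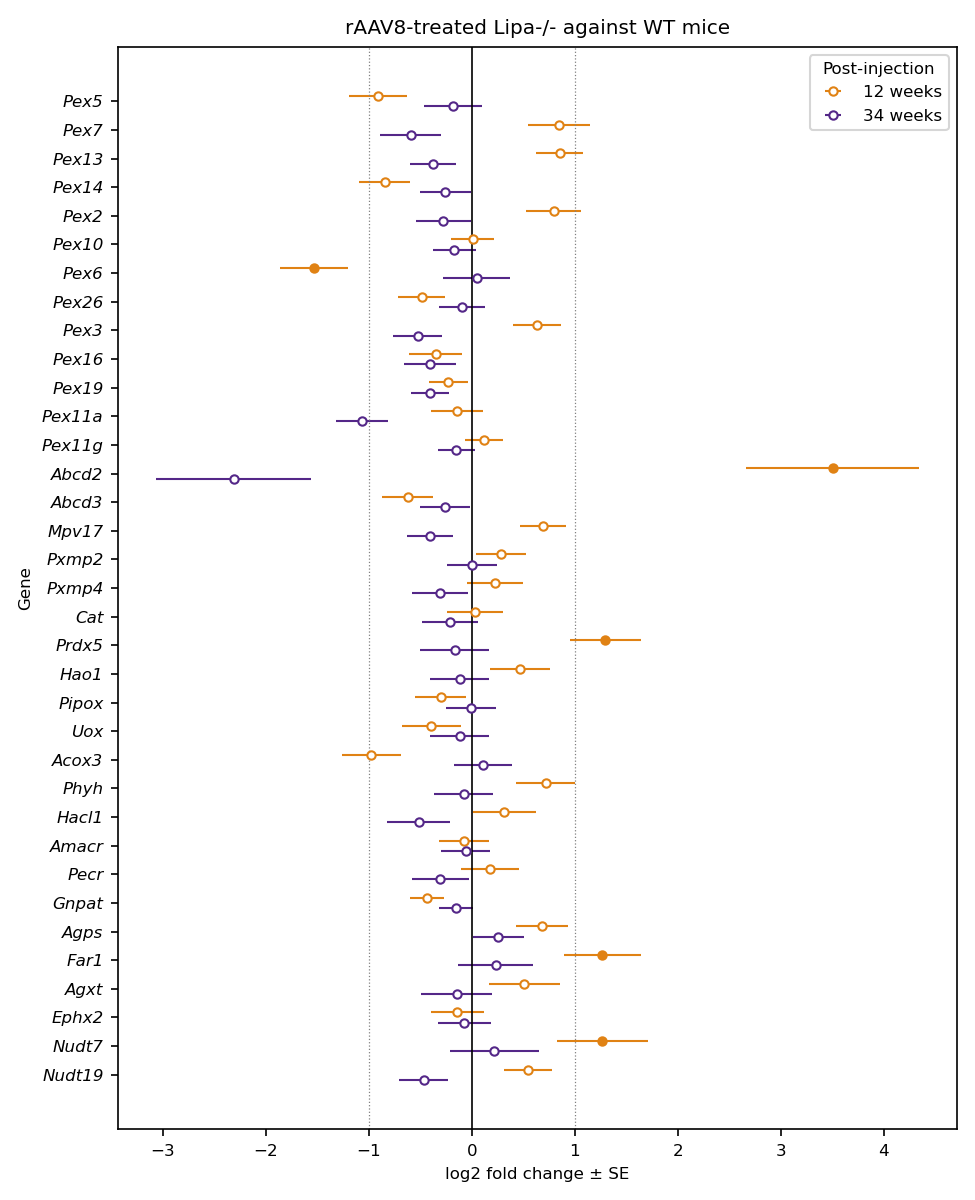
Log2 fold change ± SE of rAAV8-treated Lipa-/- against WT mice (horizontal axis) for 35 genes (vertical axis; Hao2 omitted) at 12 weeks (orange) and 34 weeks (purple), with 3 mice a group. Filled points were called, open points were not, and dotted lines mark a log2 change of 1. At 12 weeks Abcd2, Prdx5, Far1 and Nudt7 are filled to the right and Pex6 to the left, and at 34 weeks no point is filled.

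At 12 weeks, 4 of the 35 genes were called higher in treated than in WT mice and 1 lower, beside 13.6% and 12% of all genes, so neither share was above that of all genes. Whatever the fold, 15 passed the adjusted p, beside 36.8% of all genes. Pex6 was the gene called lower, at 13.9, 31.5 and 32.0 CPM in treated, 67.7, 64.6 and 92.5 CPM in WT and 41.7, 38.1 and 23.0 CPM in Lipa-/- mice. At 34 weeks it was at 101, 101 and 53.1 CPM in treated, 60.1, 92.5 and 94.0 CPM in WT and 25.3, 28.5 and 29.3 CPM in Lipa-/- mice. Treated mice at 12 weeks were all below WT and overlapped the Lipa-/- mice (against WT -1.53 ± 0.33, adjusted p = 0.005), and at 34 weeks they were all above the Lipa-/- mice. Pex6 was the gene called in all 6 ways of scaling. The 4 called higher were Abcd2 (3.50 ± 0.84), Prdx5 (1.30 ± 0.34, adjusted p = 0.011), Nudt7 (1.27 ± 0.44, adjusted p = 0.033) and Far1 (1.27 ± 0.37, adjusted p = 0.017). Without treated mouse 10, which had the highest Nudt7, Prdx5 and Far1 of its group, these 3 were at 0.69, 0.97 and 0.76 and were not called. The median of the 35 was 0.18 after TMM scaling but -0.23 under total counts, which moved the median of all genes from 0.06 to -0.33, and -0.43 in TPM, so no direction is given for the set. Of 10 macrophage markers, 5 were called higher than in WT in these mice, with sums of 1089 to 2781 CPM against 151 to 401 CPM, and 0 at 34 weeks with edgeR (1 at an unadjusted p under 0.05). At 12 weeks 5 of 8 stellate and fibroblast and 4 of 8 T, B and NK cell markers were also called higher. The part of these cells in the 12-week values was not tested.

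Against Lipa-/- mice at 12 weeks, 20 of the 35 were called higher in treated mice and 2 lower, beside 16.2% and 25.3% of all genes. The median of all genes was -0.19 after TMM scaling and -1.05 under total counts. Under total counts 6 of the 35 were called higher and 4 lower, beside 4.67% and 47.7% of all genes. In TPM 4 were called higher and 5 lower, beside 2.49% and 35.5%. Of the marker lists, 7 of 10 macrophage, 5 of 8 stellate and fibroblast and 3 of 5 cholangiocyte markers were called lower here and 2 of 9 hepatocyte markers higher, and their part was not tested. Hacl1, Hao1, Nudt7 and Phyh were called higher and Far1 and Acox3 lower in all 6 ways of scaling. Nudt7 was 61.1-fold higher (5.93 ± 0.54, adjusted p = 9.2e-07). Pex5 (-0.08 ± 0.28), Pex6 (-0.41 ± 0.33) and Pex14 (0.19 ± 0.25) were not called, and at 34 weeks all 3 were higher in treated than in Lipa-/- mice (1.29 ± 0.29, 1.62 ± 0.33 and 1.23 ± 0.25). Whether the treated-against-WT difference changed between 12 and 34 weeks was called for 8 of the 35 genes, beside 18.4% of all genes, and that count ranged from 0 to 10 when single mice were left out. The 8 were 7 lower and 1 higher at 34 weeks, beside 9.83% and 8.58% of all genes.

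**Figure D4:**
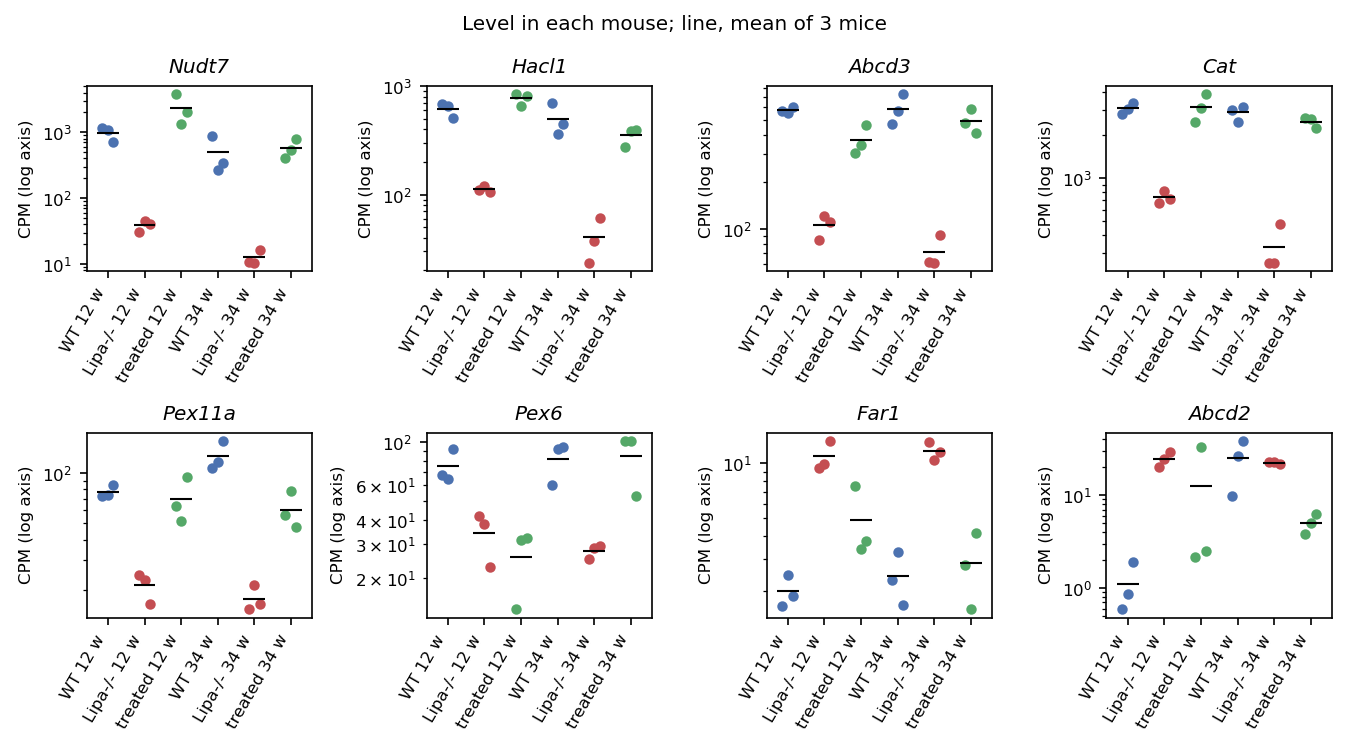
CPM (vertical log axis, not shared between panels) of 8 genes in each mouse of the 6 groups (horizontal axis: WT blue, Lipa-/- red, rAAV8-treated Lipa-/- green), with a line at the mean of 3 mice. Lipa-/- mice are lowest for Nudt7, Hacl1, Abcd3, Cat and Pex11a at both times and highest for Far1, treated mice at 12 weeks reach the lowest Pex6 value, and WT mice have a higher Abcd2 level at 34 than at 12 weeks.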

How the data were processed

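Liver polyA RNA with ERCC spike-in was sequenced. Per the study's methods, the authors quantified transcripts with Salmon against Ensembl mouse cDNA (GRCm39) and summarised genes with tximport. The deposited table holds estimated counts per gene (expected counts, 19.4% not whole, rounded here), TPM and effective lengths, and the submitters' processing notes name R 4.3.0 and DESeq2 1.40.1. The authors' own comparison table (fold changes and p-values) was not used.

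Groups came from the labels, 3 mice each. Genes with more than 100 reads over the 18 mice (14533) were fitted together in 6 groups with edgeR 4.0.16 (TMM scaling, quasi-likelihood test, Benjamini-Hochberg adjustment) in R 4.3.3; 9 contrasts were tested and calls needed an absolute log2 fold change above 1 and an adjusted p under 0.05. DESeq2 1.42.0 with length offsets, limma 3.58.1 on log2(TPM + 1), other scalings and filters and leaving out each mouse were alternatives. With 3 mice against 3, an exact permutation test of single genes cannot go below 0.1, so p-values rest on the fit across genes. On simulated counts for Lipa-/- against WT mice at 12 weeks (14306 genes, 200 changed), edgeR called 83% of 4-fold changes and, at an adjusted p under 0.05, found 19% of 2-fold changes. There edgeR made 7 false calls and DESeq2 67. In a simulated comparison without change, edgeR made 0 calls and DESeq2 146. These counts were simulated without length differences, whereas DESeq2 used length offsets. Exons of 23 of the 36 genes overlap a gene on the opposite strand and those of 4 one on the same strand in the annotation, and the strand setting of the library is not given in the sources used here. The members, lists and named genes (all 36, with values per mouse for those changing most) were chosen with earlier results of these data known. Some further peroxisomal genes are not reported here.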

Additional observations from a re-analysis of the deposited data

Results flagged for a closer look

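By the interaction test of edgeR, a change in the treated-against-WT difference between 12 and 34 weeks was called for 8 of the 35 genes besides Hao2. Calls needed an absolute log2 change above 1 and an adjusted p under 0.05. They covered 18.4% of all genes, so the count is not particular to the 35. The 8 calls fell to 0 without treated mouse 9 at 34 weeks, or without WT mouse 1 or WT mouse 3 at 12 weeks. Among all genes the calls then fell from 2675 to 1, 65 and 3. The count also depended on scaling, with 3 of the 35 called under total counts, 4 in TPM and 1 under hepatocyte markers. As the log2 fold change at 34 weeks minus that at 12 weeks, the values were -1.44 for Pex7, -1.23 for Pex13, -1.16 for Pex3, -5.82 for Abcd2, -1.10 for Mpv17, -1.46 for Prdx5, -1.01 for Nudt19 and 1.58 for Pex6. For Abcd2 the change came with a rise in WT mice between the times, and mouse 11 alone carried the high level in treated mice at 12 weeks. Time and study code cannot be told apart, so the part of each in these differences was not tested. None of the 35 genes was called when the Lipa-/- against WT difference was compared between times with edgeR.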

How the results depend on the processing

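No called change reversed its direction under any alternative. Counts here are over the 35 genes without Hao2, because no test of Hao2 is given. Counting without Hao2, and recounting the lists without mouse 4, were chosen after seeing the data. Of the 35 genes, the number called in Lipa-/- against WT mice at 12 weeks went from 21 to 13 under total counts, hepatocyte markers and TPM. Among all 14533 genes tested, it went from 4256 to 4653, 4198 and 3066. At 34 weeks the number went from 28 to 18 under hepatocyte markers, beside 5272 and 6879 of all genes. Against Lipa-/- mice at 12 weeks, the count in treated mice went from 22 to 10 under total counts and 9 in TPM. Among all genes it went from 6027 to 7612 and 5523. In treated against WT mice at 12 weeks the 5 calls became 15 by adjusted p alone and 2 at an adjusted p under 0.01. Among all genes the number went from 3713 to 5355 and 1800. The 0 calls in treated against WT mice at 34 weeks became 1 with DESeq2, beside 32 and 88 of all genes. They stayed at 0 under every other alternative. Between WT times, the 1 call became 0 in TPM, with only the groups compared or at an adjusted p under 0.01. Among all genes the number went from 47 to 35, 9 and 10. The 0 calls of the Lipa-/- by time test became 1 with DESeq2, with no filter or with only the groups compared. Among all genes the number went from 9 to 171, 33 and 14. The 8 calls of the treated by time test became 5 with edgeR and length offsets, 4 in TPM, 3 under total counts and 1 under hepatocyte markers. Among all genes the number went from 2675 to 2450, 1583, 2793 and 368. With only the groups compared or an adjusted p under 0.01 the 8 became 0, beside 5 and 0 of all genes.

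Leaving out single mice gave 19 to 22 calls for Lipa-/- against WT at 12 weeks and 27 to 29 at 34 weeks. For treated against WT it gave 2 to 7 and 0 to 0, and for treated against Lipa-/- mice 20 to 23 and 25 to 29. Calls numbered 0 to 1 between WT times, 0 to 1 for the Lipa-/- by time test and 0 to 10 for the treated by time test. Leaving out Lipa-/- mice 5 and 4 together, an alternative chosen after seeing the data, left 0 calls in the Lipa-/- by time test. A replicate block on the WT mouse numbers gave 0 calls between WT times. The numbers mark different animals. Deviations of same-numbered WT mice correlated at 0.0996, -0.36 and 0.59, too few values to decide whether such mice share more than a number.

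With 3 mice a group, changes near 2-fold were detected in few simulated cases, and genes near 3 reads such as Hao2 rest on counting error.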

Other observations

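Within WT mice at 34 weeks, mouse 1 stood apart from mice 2 and 3 for some members. Nudt7 was at 866 CPM in mouse 1 and 269.5 and 343 CPM in the others, Prdx5 at 543 against 230.2 and 257 CPM, and Hao1 at 417 against 211 and 224 CPM, while Abcd2 was lower in mouse 1, at 9.91 against 26.2 and 38.4 CPM. Among Lipa-/- mice at 34 weeks, mouse 6 had the highest level of Hacl1 (60.4 CPM, against 23.5 and 37.1 CPM), Cat (478 against 257 and 257 CPM) and Pecr (44.9 against 20.4 and 23.3 CPM), and mouse 4 did not stand apart from mouse 5 for Cat or Nudt7. In Lipa-/- against WT mice at 34 weeks, 28 of the 35 genes besides Hao2 were called one by one, in either direction. Leaving out single mice gave 27 to 29.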
